A study of Homo sapiens with 23 samples.

Results

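A set of 10 genes that mark or drive the epithelial to mesenchymal transition (EMT) was followed in a nascent transcription time course. It holds the transcription factor genes ZEB1, ZEB2, SNAI1, SNAI2 and TWIST1, the cadherin genes CDH1 and CDH2, the mesenchymal structural genes VIM and FN1, and the epithelial splicing factor gene ESRP1. They were taken by name and not by a measured value, although earlier results of these data were known when the set was drawn up. Each of the 10 symbols corresponded to 1 Ensembl identifier in GENCODE release 44, and these are 10 of the 60605 gene rows in the count table. Of the 10 genes, 9 passed a filter on low counts that kept 26057 rows, and SNAI2 did not.

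The assay was PRO-seq, a nuclear run-on in which polymerases already on the DNA incorporate a labelled nucleotide, so that reads count transcribing polymerases and not stored mRNA. The cells were T47D, a luminal line of breast cancer that expresses the estrogen receptor, in which a degron tag was placed at the endogenous TRPS1 gene, and all groups came from the same clone, Clone 28. The groups were DMSO (0.1% v/v for 24 h, 4 replicates) and a mixture of 2 degrader ligands, dTAG-13 with dTAG-V-1 at 50 nM each and called dTAG here, for 0.5, 1, 2 or 4 h (4 replicates each) or 24 h (3 replicates, numbers 2, 3 and 4). Replicates were harvested at separate times of the same day, so p-values measure the spread between harvests of 1 clone. Libraries with the same replicate number were taken as 1 harvest, though the labels give only the number. The controls carry the tag too, and none of the PRO-seq libraries analysed here came from untagged cells given dTAG, so in these libraries loss of TRPS1 and any other effect of the ligands cannot be told apart.

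In EMT, cells give up the adherens junctions and polarity of an epithelium and gain motility, with E-cadherin (CDH1) lost and N-cadherin (CDH2), vimentin (VIM) and fibronectin (FN1) gained. ZEB1, ZEB2, SNAI1, SNAI2 and TWIST1 bind E-box elements and repress epithelial genes, CDH1 among them, while ESRP1 holds the epithelial splice pattern of many transcripts. TRPS1 is an atypical GATA-family repressor that has been described as holding back the mesenchymal program in breast cells, with ZEB2 among its described targets, and the comparisons below ask which of these genes were being transcribed and which changed after dTAG.

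The miR-200 family is the classic brake on ZEB1 and ZEB2: its members pair with the 3′ ends of both messages, and ZEB1 in turn represses their genes. Their mature sequences (RefSeq, build GRCh38.p14) are printed because the seed, bases 2 to 8 and in capitals, sorts the family into a pair of groups that differ by a single seed base. The group with the seed AAUACUG holds miR-200b and miR-429 from chromosome 1 and miR-200c from chromosome 12.
hsa-miR-200b-3p: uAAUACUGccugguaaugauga
hsa-miR-200c-3p: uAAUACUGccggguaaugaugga
hsa-miR-429: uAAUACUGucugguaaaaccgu
The group with the seed AACACUG holds miR-200a from chromosome 1 and miR-141 from chromosome 12.
hsa-miR-141-3p: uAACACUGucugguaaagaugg
hsa-miR-200a-3p: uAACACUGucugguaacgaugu

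The canonical ZEB1 transcript held 9 matches to these seeds in the 2540 bases after its stop codon, 6 for AAUACUG (site CAGTATT) and 3 for AACACUG (site CAGTGTT). The canonical ZEB2 transcript also held 9 in its 5370 bases, 5 for AAUACUG and 4 for AACACUG. A match is a description of the letters in GENCODE release 44 transcripts on hg38, searched on the transcript strand, and it shows no pairing in these cells. The stop-proximal match of each kind in each gene is shown with the seed match in capitals and its hg38 position.
ZEB1 CAGTATT at chr10:31527621-31527641, plus strand: gttttatcttatCAGTATTat
ZEB1 CAGTGTT at chr10:31528034-31528054, plus strand: aatcatcagaatCAGTGTTtg
ZEB2 CAGTATT at chr2:144389051-144389071, minus strand: actaccatacatCAGTATTtt
ZEB2 CAGTGTT at chr2:144389235-144389255, minus strand: aaaaattttgtaCAGTGTTaa

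The 23 libraries held 4408544 to 17571616 counts in genes, with a median of 9768427. Values are CPM, counts scaled to a common library size with TMM factors, and levels of different genes are compared as CPM per kilobase of annotated gene span. All 10 luminal markers examined (ESR1, GATA3, FOXA1, KRT8, KRT18, KRT19, EPCAM, XBP1, TFF1 and PGR) lay above background in every DMSO library. Of the markers of other cell types, 1 of 5 basal and myoepithelial genes (OXTR) and 1 of 9 fibroblast genes (COL1A1) did so. The summed level of the luminal list was 6879 to 7678 CPM in DMSO and 6453 to 6858 CPM at 1 h, with no overlap, and 6162 to 7115 CPM over all dTAG libraries. That of the basal list was 21.9 to 24.5 CPM in DMSO and 26.5 to 36.2 CPM after dTAG, with no overlap. As only OXTR of that list lay above background in every DMSO library, few genes may carry this sum. Its single genes were not compared, and how often other sums part from DMSO in this way was not computed. The fibroblast list was 17.8 to 19.3 CPM in DMSO and 15.2 to 19.9 CPM after dTAG, and the part of these lists in the results below was not tested. The ligands act on the protein, so counts at TRPS1 itself give no check of its depletion. They were 9171.0 ± 892 CPM in DMSO (SD, n = 4) and 11122.2 ± 1195.4 CPM at 24 h (SD, n = 3), with an edgeR adjusted p of 0.288.

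In the DMSO libraries, transcription of the set was concentrated in 3 genes: SNAI1, ESRP1 and CDH1. SNAI1, which spans only 5.907 kb, was the densest at 6.01 ± 0.403 CPM per kb (SD, n = 4), followed by ESRP1 at 3.33 ± 0.0787 and CDH1 at 2.81 ± 0.128 CPM per kb. These densities stood at the 96.6, 91.6 and 89.0 percentiles of 19942 protein-coding genes. The ranges of the 4 libraries did not overlap between SNAI1 and ESRP1 or between ESRP1 and CDH1. In CPM, without division by span, the same 3 genes led in another order: CDH1 (275.9), ESRP1 (221.2) and SNAI1 (35.5).

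The remaining 7 genes were at least an order of magnitude sparser. VIM (0.151 ± 0.0498 CPM per kb), FN1 (0.130 ± 0.0146) and SNAI2 (0.0945 ± 0.0498) formed a middle tier at the 36.5, 35.4 and 33.4 percentiles. ZEB1 (0.0170 ± 0.00147), TWIST1 (0.0134 ± 0.00419), ZEB2 (0.0118 ± 0.00167) and CDH2 (0.00965 ± 0.00205) formed a lowest tier, at the 18.9, 15.0, 12.8 and 9.49 percentiles. Ranges overlapped between VIM and FN1, between FN1 and SNAI2, and between each pair of neighbours from ZEB1 to CDH2, so the order inside a tier is not resolved, whereas CDH1 and VIM, and SNAI2 and ZEB1, did not overlap. These tiers rest on division by whole gene span. In CPM, FN1 (9.86) stayed above the lowest tier. VIM (1.41) was below ZEB1 (3.59), CDH2 (2.37) and ZEB2 (1.85) but above TWIST1 (1.30), and SNAI2 (0.392) was below them all. How reads were spread along each gene was not examined.

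**Figure D1:**
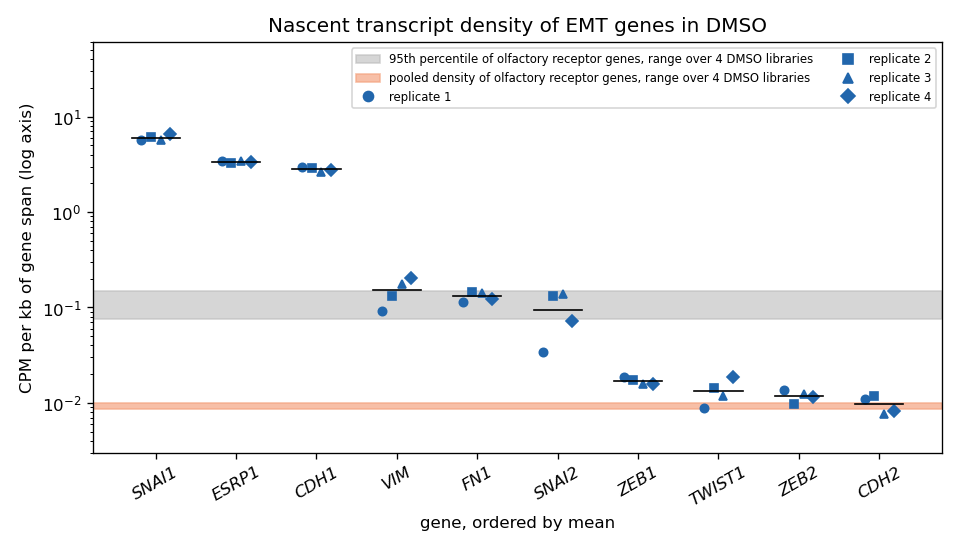
CPM per kilobase of gene span (log axis) of the 10 EMT genes in the 4 DMSO libraries (symbols, 1 per replicate; black line, mean), ordered by mean. The grey band is the range of the 95th percentile of olfactory receptor genes and the orange band the range of their pooled density; SNAI1, ESRP1 and CDH1 sit far above both, VIM, FN1 and SNAI2 around the grey band, and the last 4 genes near the orange band.

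The gene spans behind these densities are whole genes, introns included, in GENCODE 44 on hg38. The transcription factor genes are ZEB1 (ENSG00000148516, chr10:31318495-31529814, plus strand), ZEB2 (ENSG00000169554, chr2:144364364-144521057, minus), SNAI1 (ENSG00000124216, chr20:49982980-49988886, plus), SNAI2 (ENSG00000019549, chr8:48917598-48921740, minus) and TWIST1 (ENSG00000122691, chr7:19020991-19117636, minus). CDH1 (ENSG00000039068) lies at chr16:68737292-68835537, plus strand, and CDH2 (ENSG00000170558) at chr18:27932879-28177946, minus strand. VIM (ENSG00000026025) lies at chr10:17228241-17237593, plus strand, FN1 (ENSG00000115414) at chr2:215360440-215436073, minus strand, and ESRP1 (ENSG00000104413) at chr8:94641074-94707466, plus strand.

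To decide which genes are transcribed at all, each density was set against 276 olfactory receptor genes that overlap no other gene, a family that breast cells are not known to use. Their 95th percentile was 0.0760 to 0.150 CPM per kb in the DMSO libraries. SNAI1, ESRP1 and CDH1 exceeded it in all 23 libraries, and their DMSO means were 52.9, 29.3 and 24.7 times the mean threshold. VIM and FN1 exceeded it in 2 of 4 DMSO libraries each, and in 18 and 16 of the 23 libraries, with every library at 2, 4 and 24 h among them. SNAI2 exceeded it in 1 of 4 DMSO libraries and 12 of the 23. ZEB1, ZEB2, TWIST1 and CDH2 exceeded it in none of the 23 libraries. The threshold itself ran from 0.0479 to 0.207 CPM per kb over the 23 libraries, so these counts do not measure change after dTAG. Mean density of VIM was 0.151 in DMSO and 0.147, 0.150 and 0.158 CPM per kb at 2, 4 and 24 h. That of FN1 was 0.130 in DMSO and 0.154, 0.132 and 0.151 CPM per kb at those times.

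That threshold is coarse, because a single read in a short receptor gene already gives a high density. Against the pooled density of 262 of these genes, left after the 5% with the most counts were dropped, the tiers were clearer. This pool held 68 to 139 reads per DMSO library over 1113.03 kb and was chosen as a reference after the data were seen. SNAI1, ESRP1 and CDH1 were 651, 361 and 304 times the pooled background, VIM, FN1 and SNAI2 16.4, 14.1 and 10.2 times, ZEB1 1.84 times, TWIST1 1.45 times, ZEB2 1.28 times and CDH2 1.05 times. ZEB1 exceeded the pooled background in all 23 libraries and TWIST1 in 20. ZEB2 did so in all 4 DMSO libraries but in only 13 of the 23, and CDH2 in 2 of the DMSO libraries and 12 of the 23, so that transcription of CDH2 above silent genes was not detectable at this depth.

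The reads behind the low values were few. Per library, CDH2 had a mean of 25.3 counts over 245.068 kb, ZEB1 36.1 over 211.32 kb, ZEB2 17.6 over 156.694 kb and SNAI2 4.22 over 4.143 kb. TWIST1 had 15.1 counts over an annotated span of 96.646 kb, of which its canonical transcript covers 2.169 kb. If all of its reads lay in that transcript, its DMSO density would be 0.598 ± 0.187 CPM per kb, above the receptor threshold in 4 of 4 libraries, so for TWIST1 the gene model decides the tier.

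Strand matters for some of these genes, because the use of strand in the counting is not stated. ZEB1 overlaps ZEB1-AS1 on the opposite strand, which had a mean of 160.9 counts per library against 36.1 for ZEB1 itself. VIM overlaps VIM-AS1, with 20.5 counts against 15.4 for VIM. For CDH1 and ESRP1, the counts of every overlapping gene were under 2% of their own, and FN1, SNAI1 and SNAI2 overlap no counted gene.

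The cadherin balance was epithelial in every library. CDH1 was 245 to 348 times as dense per kilobase as CDH2 in DMSO, and the ratio stayed between 187 and 589 in the dTAG libraries. CDH2 itself lay near the pooled background, and its few reads set most of the spread of this ratio.

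After dTAG, 1 of the 10 EMT genes was called changed at any time, and it was an epithelial gene that fell: ESRP1 at 1 h. None of the mesenchymal genes or of their transcription factors was called higher at any of the 5 times. A gene was called at an adjusted p (edgeR quasi-likelihood test, Benjamini-Hochberg over all 26057 genes kept) under 0.1. Of all tested genes, 0.476% were called at 0.5 h, and the shares for the later times, in order, were 1.25%, 0.733%, 0.833% and 0.863%. Split by direction, the shares called higher were 0.234%, 0.514%, 0.43%, 0.526% and 0.564% from 0.5 h to 24 h, and those called lower 0.242%, 0.733%, 0.303%, 0.307% and 0.299%. With 9 genes tested, a single call is not a departure from this background that a count can show.

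Before adjustment, edgeR gave a p under 0.05 for ESRP1 and SNAI1 at 0.5 h (2 genes), ESRP1 and ZEB2 at 1 h (2 genes), ZEB2 at 2 h (1 gene), and 0 genes at 4 and 24 h. DESeq2 called ESRP1 at 0.5 and 1 h and 0 genes at the later times. With the harvest as a block, edgeR called ESRP1 at the same early times and again 0 genes later, where 2.48%, 3.25%, 2.43%, 2.49% and 2.65% of all genes were called from 0.5 h to 24 h.

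ESRP1 was at 225, 215, 226 and 219.6 CPM in the DMSO libraries 1 to 4. It was at 203, 205, 211 and 195 CPM at 0.5 h and at 205, 195, 195 and 206 CPM at 1 h. All 8 early libraries lay below all 4 DMSO libraries, a separation from DMSO that 4.97% of tested genes showed at 0.5 h and 5.37% at 1 h. The log2 fold change was -0.14 ± 0.03 at 1 h (SE; 95% interval -0.21 to -0.07; adjusted p = 0.0498), a fold of 0.905. At 0.5 h it was -0.12 ± 0.03 with an adjusted p of 0.194, and with the harvest as a block it was called there too (adjusted p = 0.0734).

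At 2, 4 and 24 h ESRP1 had returned part of the way, to 213 CPM at each time, each with a log2 fold change of -0.05 and an interval that included 0. It was below the DMSO library of the same harvest in 17 of 19 dTAG libraries. Such comparisons, here and below, reuse the 4 DMSO libraries and the values behind the calls, so they are not independent. The share of all genes with such a tally was not computed. The call at 1 h was narrow without the block: the fold change stayed between -0.16 and -0.12 when any replicate was left out, but the adjusted p rose to between 0.168 and 0.560 and the call was lost each time. Those leave-one-out fits had no block. With all libraries and the harvest as a block, the edgeR adjusted p of ESRP1 at 1 h was 0.0216.

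CDH1, the E-cadherin gene, showed no called change. Its DMSO libraries were at 288, 283, 259 and 274 CPM, its 1 h libraries at 302, 269, 243 and 267 CPM and its 24 h libraries (replicates 2 to 4) at 281, 267 and 279.5 CPM. The groups overlapped at all 5 times. At 24 h the log2 fold change was 0.00 ± 0.10 with a 95% interval of -0.21 to 0.21, which corresponds to folds of 0.866 to 1.16. The 24 h and 0.5 h groups differed by 0.10 on the log2 scale (adjusted p = 0.777), and by 0.17 with the harvest as a block (adjusted p = 0.0632). In that comparison 6.34% of genes were called with the block and 1.99% without.

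SNAI1 encodes Snail, a repressor of CDH1 whose message and protein turn over quickly. It was at 33.3, 36.4, 33.9 and 38.5 CPM in DMSO and at 40.1, 39.6, 40.0 and 41.3 CPM at 0.5 h, so that the groups did not overlap. The log2 fold change of 0.18 ± 0.08 was not called (interval 0.01 to 0.35, adjusted p = 0.624). From 1 h on, the libraries spread from 28.1 to 38.2 CPM and overlapped DMSO. The difference of 24 h from 0.5 h was -0.24 ± 0.09 (adjusted p = 0.261), and with the harvest as a block -0.25 (adjusted p = 0.0607).

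**Figure D2:**
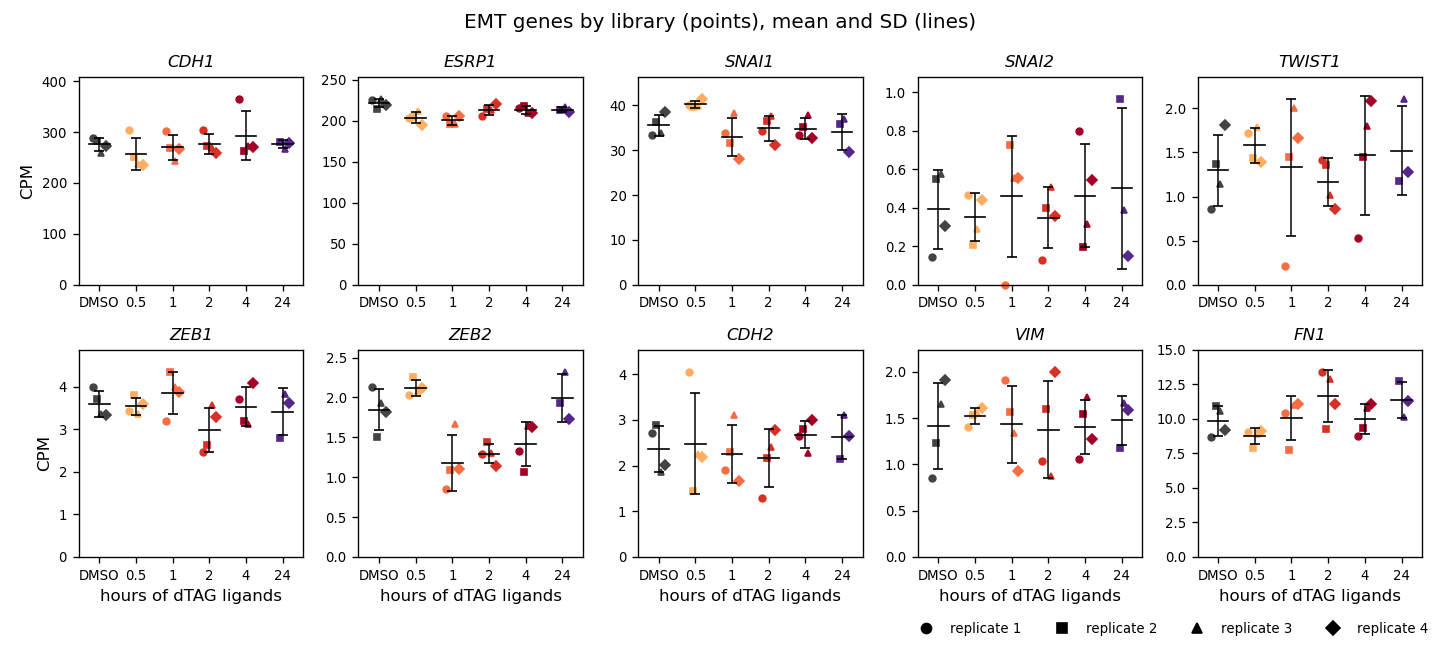
CPM of each EMT gene in all 23 libraries, by group (DMSO and hours of dTAG on the x axis; symbols, replicates; black line and bars, mean and SD; y axes start at 0 and differ between genes). ESRP1 is lower at 0.5 and 1 h than in DMSO, SNAI1 higher at 0.5 h only, ZEB2 low from 1 to 4 h, and the others overlap DMSO throughout.

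ZEB2, the described TRPS1 target, was not called in either direction at any time. Its DMSO libraries were at 2.14, 1.51, 1.93 and 1.81 CPM, from 15, 11, 27 and 18 counts. Its 1 h libraries were at 0.850, 1.09, 1.67 and 1.11 CPM, from 4, 9, 15 and 6 counts. The low values persisted in the 2 h libraries, with 1.29, 1.44, 1.31 and 1.14 CPM, from 10, 18, 18 and 16 counts.

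All 12 ZEB2 values from 1 to 4 h were lower than the DMSO library of the same harvest, and the 2 h range lay below the DMSO range, as it did in either direction for 4.85% of tested genes. Neither difference was called (log2 fold change -0.60 ± 0.30 and adjusted p = 0.525 at 1 h, -0.51 ± 0.25 and adjusted p = 0.634 at 2 h), and groups held only 34 to 100 ZEB2 reads. At 24 h it was at 1.99 ± 0.300 CPM (SD, n = 3) against 1.85 ± 0.262 CPM in DMSO (SD, n = 4). The log2 fold change was 0.12 with an interval of -0.37 to 0.60, whose upper bound is a 1.52-fold rise.

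ZEB1, the paralog of ZEB2, was at 3.99, 3.70, 3.36 and 3.33 CPM in DMSO and at 2.78, 3.82 and 3.62 CPM at 24 h. Its log2 fold changes ran from -0.24 at 2 h to 0.12 at 1 h, and its groups overlapped DMSO at all 5 times. At 24 h the interval of -0.41 to 0.31 left room for a rise of up to 1.24-fold. ZEB1 was lower than its harvest's DMSO library in 10 of 19 comparisons and higher in 9.

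TWIST1 and SNAI2, the other 2 transcription factors, were too sparse to be resolved. TWIST1 was at 1.30 ± 0.405 CPM in DMSO (SD, n = 4) and 1.52 ± 0.506 CPM at 24 h (SD, n = 3), and its intervals at the 5 times reached from -0.95 to 1.03. SNAI2 had 0 to 9 counts per library and 14 to 18 per group, with 16 in DMSO and 18 at 24 h. It was not tested for change, and its ranges overlapped DMSO at all times.

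Of the mesenchymal structural genes, FN1 carried the most reads. It was at 8.68, 10.97, 10.6 and 9.17 CPM in DMSO, 13.4, 9.27, 12.9 and 11.1 CPM after 2 h, and 12.7, 10.1 and 11.3 CPM at 24 h. These groups overlapped, and the log2 fold changes of 0.24 ± 0.13 at 2 h and 0.20 ± 0.13 at 24 h were not called (adjusted p = 0.792 and 0.858). The difference of 24 h from 0.5 h was 0.37 ± 0.13, with an adjusted p of 0.238.

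VIM was at 1.41 ± 0.466 CPM in DMSO (SD, n = 4) and 1.47 ± 0.260 CPM at 24 h (SD, n = 3), and its log2 fold change was 0.04 with an interval of -0.54 to 0.62. CDH2 was at 2.37 ± 0.502 CPM in DMSO and 2.63 ± 0.479 CPM at 24 h, and its log2 fold change was 0.20 with an interval of -0.38 to 0.78. The upper bounds are 1.54-fold for VIM and 1.71-fold for CDH2, so the intervals do not exclude rises up to these sizes. They are not detection limits, and the smallest rise that would have been called was not computed. Over the course from DMSO to 4 h taken as a whole, 0 of the 9 genes were called by edgeR (1.33% of 25255 genes tested were, and 4.6% with the block), with 3 at an unadjusted p under 0.05 (ESRP1, SNAI1 and ZEB2). The smallest adjusted p among them was 0.228, and DESeq2 called ESRP1.

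**Figure D3:**
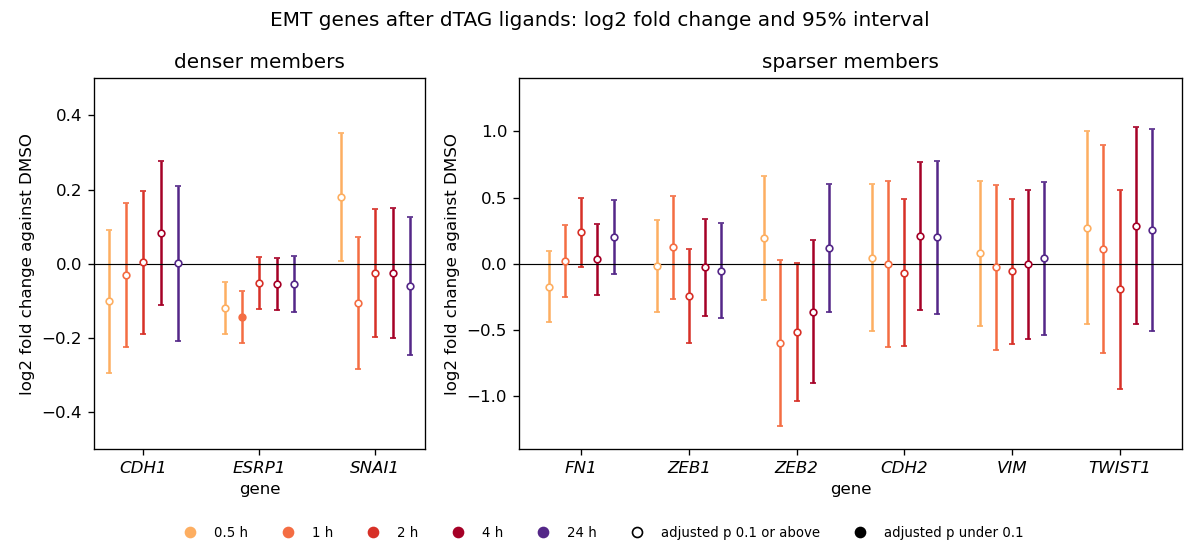
Log2 fold change against DMSO with its 95% interval at 0.5, 1, 2, 4 and 24 h for the 9 tested EMT genes (left, the 3 denser genes; right, the 6 sparser genes, on a wider axis; filled points, adjusted p under 0.1). Only ESRP1 at 1 h (-0.14) is filled, and the intervals of TWIST1, CDH2, VIM and ZEB2 are several times as wide as those of ESRP1.

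Around these 10 genes, 5 wider lists of the same program were described: 43 epithelial genes, 46 mesenchymal genes, 22 other EMT transcription factors, 29 genes of TGF-beta signalling (the best-known inducer of EMT) and 6 genes of the miR-200 family. Of these, 43, 35, 20, 28 and 6 were tested. Called at 1 or more times were 5 epithelial genes, 2 mesenchymal genes, 5 transcription factors, 2 TGF-beta genes and no miR-200 gene, beside 2.43% of all genes tested at those times. In fits of DMSO with a single time, added after seeing the data, the counts were 2, 1, 0, 1 and 0. With the harvest as a block the counts were 13, 2, 8, 5 and 0, beside 7.89% of all genes. When a replicate was left out, the unblocked counts fell to between 0 and 4 (epithelial; 0 without replicate 4), 1 and 2 (mesenchymal; 1 without replicate 1, 2 or 3), 0 and 2 (transcription factors; 0 without replicate 3 or 4) and 0 and 2 (TGF-beta; 0 without replicate 4).

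The epithelial list held genes called in both directions. At 1 h, 33 of its 43 genes had a negative fold change (median -0.08, against 0.01 for all genes), with 1 called higher and 3 lower, and at 24 h 24 were negative, with 2 called higher. With the harvest as a block, 19 were negative and 24 positive at 24 h, with 3 called higher and 2 lower. EHF, an ETS factor of epithelia, was at 429.9, 397, 424 and 393 CPM in DMSO and at 489, 489, 498 and 511 CPM at 0.5 h. It was higher than its harvest's DMSO library in 19 of 19 comparisons and called at all 5 times, from 0.27 ± 0.04 at 0.5 h (adjusted p = 0.00324) to 0.21 ± 0.05 at 24 h (adjusted p = 0.0266), with up to 2 of 4 leave-one-out fits keeping the call. In the fits of DMSO with a single time the EHF fold changes were 0.21 to 0.27 but none was called (adjusted p = 0.121 to 0.281).

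PKP2, a desmosomal plaque gene, rose late. It was at 82.5 ± 5.73 CPM in DMSO and 79.4 ± 3.23 CPM at 0.5 h (SD, n = 4 each) and reached 107 ± 7.33 CPM at 24 h (SD, n = 3), a log2 fold change of 0.38 ± 0.06 (adjusted p = 0.00193). This call was kept in 3 of 4 leave-one-out fits. GRHL2, a grainyhead factor that upholds CDH1 and opposes ZEB1, fell from 1409.9 ± 43.3 CPM in DMSO to 1254.2 ± 16.5 CPM after 1 h of dTAG and 1255.5 ± 47.1 CPM after 2 h (SD, n = 4 each), with log2 fold changes of -0.17 and -0.17 (adjusted p = 0.0195 and 0.0253), calls that were kept in at most 1 of 4 leave-one-out fits. An antisense gene inside GRHL2 had counts equal to 19.9% of those of GRHL2. Also lower at 1 h, and named after their values were seen, were the tight junction gene CGN (-0.31, adjusted p = 0.0309) and GRHL1 (-0.32, adjusted p = 0.0356), with 1 and 0 of 4 leave-one-out fits keeping the call.

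ESRP2, EPCAM and OVOL2, named whatever their values, were not called in the fit of all libraries without the block. ESRP2, the partner of ESRP1, was at 59.5 ± 5.72 CPM in DMSO and 54.1 ± 5.83 CPM at 1 h (SD, n = 4 each), with an adjusted p of 0.699. EPCAM was at 34.7 ± 0.788 and 32.3 ± 2.42 CPM (log2 fold change -0.10, adjusted p = 0.797). OVOL2, a repressor of ZEB1, had log2 fold changes of -0.21 at 1 h and -0.24 at 2 h, which were not called (adjusted p = 0.438 and 0.411). They were called with the harvest as a block (adjusted p = 0.0148 and 0.00392) and without replicate 1 (-0.26 and -0.26, adjusted p = 0.0695 and 0.0651). OVOL2 and ESRP2 overlap other genes heavily: SNX5, on the strand of OVOL2, had 84.2% of its counts, and NFATC3, opposite ESRP2, had 148%.

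In the mesenchymal list, VCAN rose at all times and no other gene was called higher. VCAN encodes versican, a large matrix proteoglycan. It was at 12.5, 11.1, 12.4 and 9.57 CPM in DMSO, at 14.8, 15.5, 17.5 and 17.1 CPM at 0.5 h and at 16.4, 19.5 and 17.7 CPM at 24 h, and was higher than its harvest's DMSO library in 19 of 19 comparisons. The log2 fold change grew from 0.52 ± 0.09 at 0.5 h (adjusted p = 0.0133) to 0.67 ± 0.09 at 4 h (adjusted p = 0.000534), where the call was kept in 4 of 4 leave-one-out fits. It was kept in 1 of 4 at 0.5 h and in 3 of 4 at the remaining times. The 24 h and 0.5 h groups differed by 0.14 (adjusted p = 0.673), and the difference of 4 h from 0.5 h was not tested.

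Its DMSO density was 0.905 times the receptor threshold, close to those of VIM and FN1, and VCAN-AS1 on the other strand had 11.3% of its counts. TPM1, an actin-binding tropomyosin, fell from 60.6 ± 0.913 CPM in DMSO to 51.9 ± 3.74 CPM at 1 h (SD, n = 4 each; log2 fold change -0.22, adjusted p = 0.0310), a call kept in 1 of 4 leave-one-out fits and lost in the fit of DMSO with 1 h alone.

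The 5 genes of the transcription factor list called by edgeR without the block were all lower, each at a single time. KLF8, a repressor of CDH1, was at -0.24 ± 0.05 at 1 h (adjusted p = 0.0184), RUNX2 at -0.20 ± 0.04 at 2 h (adjusted p = 0.0460) and TBX3 at -0.34 ± 0.08 at 4 h (adjusted p = 0.0464). LEF1 (-0.60 at 2 h, adjusted p = 0.0636) and SNAI3 (-0.85 at 1 h, adjusted p = 0.0815) are named after their values were seen, and SNAI3 overlaps an antisense gene with 463 counts per library against its own 31.5. RUNX2 overlaps SUPT3H on the other strand (74.6% of its counts) and TBX3 overlaps TBX3-AS1 (54.2%), while LEF1 exceeded the receptor threshold in 0 of 23 libraries. Leaving out a replicate kept the KLF8, RUNX2 and TBX3 calls in 1 of 4 fits each and those of LEF1 and SNAI3 in 0. In the list as a whole, 13 of 20 fold changes were negative at 1 h (median -0.06), 15 at 2 h and 12 at 24 h.

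TCF4, which encodes an E-protein partner of TWIST1, stood at 31.9 CPM in replicate 1 at 1 h and at 8.81 to 11.3 CPM in the other 3 replicates, against 6.72 to 8.16 CPM in DMSO. Its log2 fold change of 1.00 was not called by edgeR (adjusted p = 0.103) but was with the harvest as a block (0.89, adjusted p = 0.0361). DESeq2 also called TCF4 higher at 1 or more times. TCF4 exceeded the receptor threshold in 0 of 23 libraries, and an antisense gene had 336% of its counts.

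In the TGF-beta list, TGFB2, which encodes a ligand of the pathway, was the only gene called higher without the block, and SKIL was called higher as well with it (0.14 at 0.5 h, adjusted p = 0.0653). It rose from 18.9 ± 0.455 CPM in DMSO (SD, n = 4) to 26.8 ± 1.64 CPM at 24 h (SD, n = 3), a log2 fold change of 0.50 ± 0.07 (adjusted p = 0.000739). It was above its harvest's DMSO library in 19 of 19 comparisons and was called at 2 h as well (0.28 ± 0.07, adjusted p = 0.0568). The 24 h call was kept in 3 of 4 leave-one-out fits and the 2 h call in 1 of 4. SMAD3, a receptor-activated transcription factor of the pathway, fell from 25.9 ± 0.363 CPM in DMSO to 20.6 ± 1.78 CPM at 4 h (SD, n = 4 each), with a log2 fold change of -0.32 ± 0.07 and an adjusted p of 0.00975 kept in 1 of 4 leave-one-out fits, and stood at 26.7 ± 1.58 CPM at 24 h. SMAD3 was called lower at 1 h as well (-0.25, edgeR adjusted p = 0.0812), a call kept in 0 of 4 leave-one-out fits.

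The type II receptor gene TGFBR2 was near background, at 0.0720 times the receptor threshold, and its log2 fold change was 0.69 ± 0.34 at 24 h (adjusted p = 0.704). The feedback inhibitor gene SMAD7 was at 0.12 ± 0.08 at 24 h (adjusted p = 0.864).

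**Figure D4:**
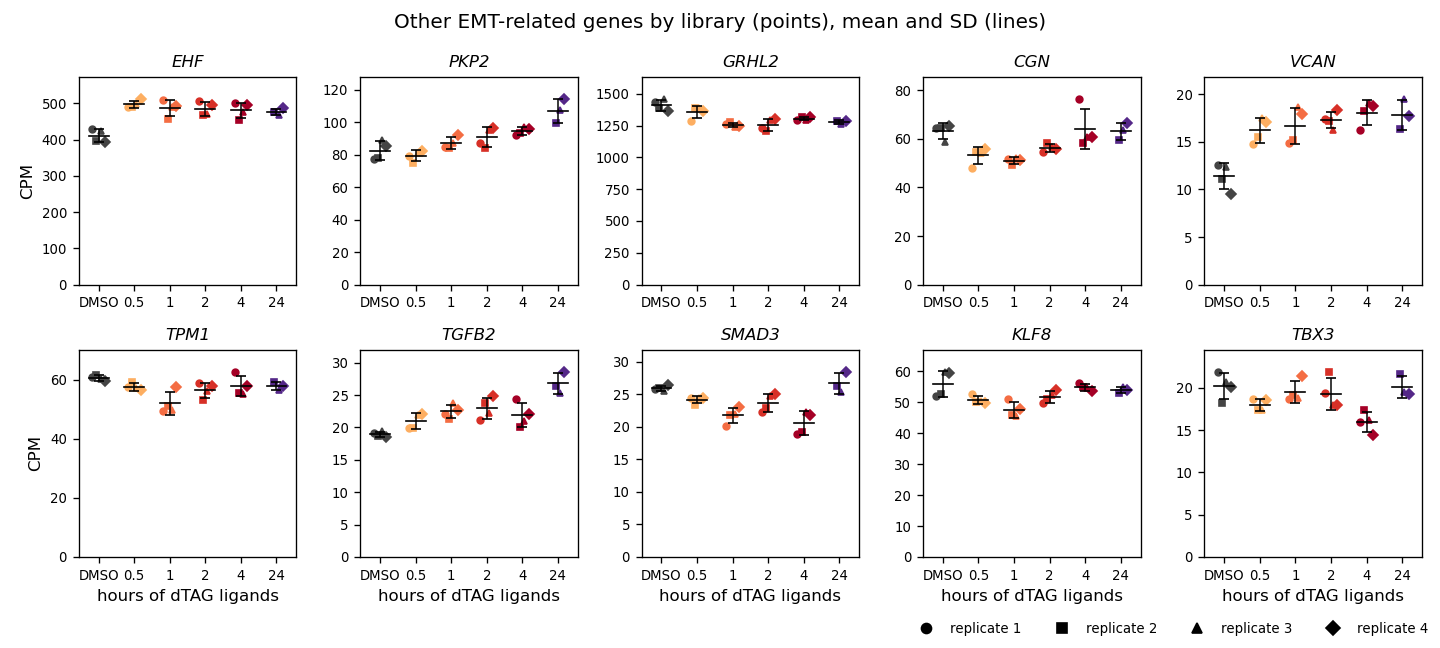
CPM of 10 genes from the wider EMT lists in all 23 libraries, by group (DMSO and hours of dTAG on the x axis; symbols, replicates; black line and bars, mean and SD; y axes start at 0). EHF and VCAN are above DMSO from 0.5 h on, PKP2 and TGFB2 are highest at 24 h, and GRHL2, CGN, TPM1, SMAD3, KLF8 and TBX3 have their lowest group mean at 1 or 4 h.

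The 3 miR-200 genes examined singly were above the receptor threshold in all 23 libraries, unevenly between harvests. The hairpin genes MIR200C and MIR200B are so short that a single read would exceed this threshold. For them the count shows only that reads were present. MIR200CHG, the host transcript of miR-200c and miR-141, was at 13.1, 10.97, 6.51 and 8.77 CPM in DMSO, at 24.6, 15.2, 5.22 and 11.6 CPM at 1 h and at 8.24, 6.69 and 6.87 CPM at 24 h. Replicate 1 was the highest library for MIR200CHG in each of the 5 groups that hold that replicate. MIR200C lies inside MIR200CHG on the same strand, with counts equal to 41.2% of those of MIR200CHG. Both may therefore hold the same reads, and the part of MIR200C in the MIR200CHG values was not separated. Of the 6 genes, edgeR called 0 at any time against DMSO, with 0 at an unadjusted p under 0.05 and a smallest adjusted p of 0.798, and the hairpin genes MIR200C and MIR200B, at 0.068 and 0.095 kb, had intervals wider than 3 log2 units at 24 h. PRO-seq is meant to count transcribing polymerases and not the mature sequences printed above. In DMSO, MIR200C was at 62.5 ± 34.7 CPM per kb (SD, n = 4), against 8.05 ± 2.32 over MIR200CHG. Whether all reads at the hairpins mark transcription was not tested.

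As a description, the genes whose log2 CPM followed each of 3 members most closely over the 23 libraries, with replicate means removed and among 14148 genes with at least 100 counts on average, were listed. For CDH1 they were NEAT1 (Pearson r = 0.824), TLN1 (0.820) and ACTN4 (0.818). For ESRP1 they were LRRFIP2 (0.844), C6orf132 (0.834) and KLF8 (0.803), and for ZEB1 TTC26 (0.726), ENSG00000287694 (0.720) and CCDC112 (0.719). The libraries share treatment groups, depth and harvest, so such r values are not evidence of a relation.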

How the data were processed

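PRO-seq libraries from 23 cultures of 1 T47D clone were analysed. The authors removed adapters with cutadapt 1.8.1, collapsed duplicates by molecular identifier, removed ribosomal DNA reads, aligned with Bowtie2 2.4.4 to hg38, used SAMtools 1.9 and used bedtools for counting. The deposited values are raw counts per gene. The annotation release, gene windows and use of strand are not given in the sources used here. Symbols and spans were taken from GENCODE 44 (60463 of 60605 identifiers matched). Genes with few reads were dropped by filterByExpr (10 counts, total of 15), so that the rest held 99.5% to 99.6% of each library's counts, TMM-scaled and tested with glmQLFTest (edgeR 4.0.16, R 4.3.3) in a fit of all libraries without a block, two-sided, with FDR under 0.1 called; DESeq2 1.42.0 was an alternative. Scripts were tested on simulated data. Standard errors are the fold change over the square root of F, or the counting error of the summed reads where that was larger. The 95% intervals use the total degrees of freedom of the edgeR test, residual and prior combined.

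Replicate numbers were taken to mark shared harvests, because the paper describes replicates handled at separate times of a day. The labels give the number alone. Deviations from group means correlated at a mean of 0.287 between same-numbered libraries (55 pairs, -0.0596 to 0.728) and -0.0825 otherwise (165 pairs, -0.623 to 0.481). The second mean is not separate evidence, because deviations cancel within each group. The numbers were used to pair the libraries, and blocked values are given for the named genes and the counts where they change a call. The members and gene lists were chosen with earlier results of these data known. Genes named outside the EMT set were the 3 with the smallest p-values among those called in each list (or the 2 densest where none was called), GRHL2, OVOL2, ESRP2, EPCAM, TGFB2, TGFBR2, SMAD7, MIR200CHG and TCF4. Alternatives were median-of-ratios or total-count scaling, no filter, the block, DESeq2, each replicate left out and fits of DMSO with a single time. Intervals cover counting and replicate error only. A further list of cell type markers is not reported here.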

Additional observations from a re-analysis of the deposited data

Results flagged for a closer look

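In 150 groups of 4 samples examined across the named genes, a single library stood far from the rest 14 times. Chance flags about 1 in 20 groups, and genes were examined in the same libraries, so the flags are not independent.

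Among the EMT genes, CDH1 at 4 h was at 364 CPM in replicate 1 against 263 to 273 CPM in the other replicates. That library was the shallowest, with 4408544 counts and a TMM factor of 0.858. Replicate 1 had the lowest TMM factor in each group that holds it, and the part of depth and scaling in the flags was not tested. FN1 at 0.5 h was at 7.89 CPM in replicate 2 against 8.94 to 9.13 CPM.

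The miR-200 genes gave 6 such cases, all in replicate 1. MIR200C was at 15.7 CPM at 0.5 h (others 1.33 to 2.26) and 19.1 CPM at 4 h (others 1.17 to 2.72). MIR200B was at 11.4 CPM at 0.5 h (others 1.84 to 3.29) and 15.1 CPM at 4 h (others 1.57 to 2.90). MIR200CHG was at 21.5 CPM at 0.5 h (others 5.48 to 7.48) and 27.9 CPM at 4 h (others 5.79 to 8.25).

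Replicate 1 also stood apart for OVOL2 at 1 h (170.3 CPM, others 142 to 144), EPCAM at 0.5 h (34.8 CPM, others 30.4 to 30.9) and TCF4 at 1 h (31.9 CPM, others 8.81 to 11.3). Replicate 2 did for SMAD3 at 0.5 h (23.4 CPM, others 24.4 to 24.5), TGFBR2 at 2 h (1.36 CPM, others 0.714 to 0.799) and SMAD7 at 0.5 h (40.6 CPM, others 34.1 to 34.7).

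A direct edgeR contrast of 24 h with 0.5 h called 1.99% of all genes, among them 2 of 43 epithelial genes and 2 of 28 TGF-beta genes. PKP2 was higher at 24 h by 0.43 on the log2 scale (adjusted p = 0.000844) and TGFB2 by 0.35 (adjusted p = 0.0145). The other 2, named after their values were seen, were TJP3 (0.37, adjusted p = 0.0150) and BAMBI (0.39, adjusted p = 0.0318).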

How the results depend on the processing

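Of 450 recomputed fold changes of the 9 tested EMT genes, 396 kept their direction and side of the threshold, 7 lost the call, 2 gained it and 45 changed sign, in 24 of the 45 combinations of gene and time; 0 of the sign changes were called in either fit, and the cause was not tested. For ESRP1 at 1 h the values without a call were -0.17 (total counts only), -0.15 (no filter), -0.15 (DMSO and 1 h alone) and -0.16 to -0.12 (a replicate left out); at 0.5 h it was called with the replicate block (-0.12) and with DESeq2 (-0.12). The sign changed for CDH1 at 2 h with median-of-ratios scaling (-0.00013), DESeq2 (-0.00026) and DMSO with that time alone (-0.0021), and at 24 h in the same 3 fits (-0.0049, -0.0047 and -0.0064). It changed for CDH2 at 1 h with the replicate block (0.046), DESeq2 (0.0069) and DMSO with 1 h alone (0.0081), for VIM at 24 h with the replicate block (-0.019) and for FN1 at 1 h with total counts only (-0.0058). With a replicate left out, the fold changes that turned sign ran, for ZEB1 from -0.060 to 0.041 at 0.5 h, -0.16 to 0.036 at 4 h and -0.18 to 0.077 at 24 h, and for SNAI1 from -0.21 to 0.0013 at 1 h, -0.090 to 0.064 at 2 h, -0.094 to 0.045 at 4 h and -0.15 to 0.071 at 24 h. They ran for TWIST1 from -0.24 to 0.26 at 1 h, -0.41 to 0.14 at 2 h and -0.15 to 0.57 at 24 h, and for CDH1 from -0.028 to 0.024 at 2 h, -0.021 to 0.14 at 4 h and -0.018 to 0.019 at 24 h. The ranges were for CDH2 from -0.12 to 0.33 at 0.5 h, -0.34 to 0.16 at 1 h, -0.29 to 0.17 at 2 h and -0.061 to 0.42 at 24 h, for VIM from -0.055 to 0.22 at 0.5 h, -0.31 to 0.29 at 1 h, -0.19 to 0.20 at 2 h, -0.10 to 0.23 at 4 h and -0.11 to 0.16 at 24 h, and for FN1 from -0.062 to 0.19 at 1 h and -0.055 to 0.12 at 4 h.

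EMT genes called against DMSO numbered 0 at 0.5 h and 1 with the replicate block or DESeq2. At 1 h they numbered 1, and 0 with total counts only, no filter, DMSO and 1 h alone, or (0 to 0) any replicate left out. Over the time course DESeq2 called 1. Between 24 h and 0.5 h the replicate block called 2 (CDH1 and SNAI1), and leaving out a replicate 0 to 1. The replicate block changed no other call among the EMT genes. In fits of DMSO with a single time, added after seeing the data for the wider lists, 2 epithelial genes, 1 mesenchymal gene, 0 other transcription factors and 1 TGF-beta gene were called. Epithelial genes called at any time numbered 5, and 3 with total counts only, 13 with the replicate block, 10 with DESeq2 and 0 to 4 with a replicate left out. Mesenchymal genes numbered 2, and 1 to 2 with a replicate left out. Other EMT transcription factors numbered 5, and 1 with total counts only, 1 with no filter, 8 with the replicate block and 0 to 2 with a replicate left out. With DESeq2 they numbered 4 (TCF4 higher, and KLF8, RUNX2 and TBX3 lower). TGF-beta genes numbered 2, and 1 with total counts only, 5 with the replicate block and 0 to 2 with a replicate left out. EMT genes above background in DMSO numbered 3, and 5 against the highest of 14 silent tissue genes (VIM and FN1 added), 7 by at least 10 counts in every library, 9 against the pooled receptor density (all but CDH2) and 4 per kilobase of the canonical transcript (TWIST1 added); the last 2 were chosen after seeing the data. Depth limits the sparse members: ZEB1 and ZEB2 had 4 to 69 reads per library.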
